A study of Sus scrofa with 15 samples.

Results

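The zona pellucida genes ZP2, ZP3 and ZP4 were followed through in vitro maturation (IVM) of pig oocytes. They were chosen by gene symbol, with earlier results of these data known, and are 3 of the 22516 genes in the pig gene table. The zona pellucida is the glycoprotein coat that the growing oocyte secretes around itself. Its proteins are made with a membrane anchor, are cut free at the oocyte surface and then polymerise into filaments through a shared segment, the ZP domain. The coat binds sperm at fertilisation and is afterwards modified by enzymes from the cortical granules, which blocks further sperm. In the pig it is built from ZP2, ZP3 and ZP4.

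The 3 groups had 5 libraries each, and every library held RNA from 15 oocytes. GV oocytes, arrested with an intact germinal vesicle, came from fresh ovarian follicles and were not cultured. MII and 'damaged' oocytes came from cumulus oocyte complexes matured in vitro for 44 h. Those with a visible first polar body after hyaluronidase had stripped the cumulus cells were the MII group, and those without one the 'damaged' group, called Damaged here. The label Damaged thus rests on the missing polar body alone. Because polyadenylated RNA of pooled oocytes was sequenced, fewer transcripts per oocyte and less of a transcript caught by its poly(A) tail cannot be told apart.

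Each library had between 6.40 and 23.6 M estimated counts. GV replicate 3 had the fewest and was left out of the tests. The comparisons thus rest on 4 GV, 5 MII and 5 Damaged libraries. TPM values were read from the transcript file of each library. In the gene table, 7 of 15 columns carried the name of another library than the one whose total they equalled, and columns were assigned by these totals. The gene table results of the zona genes are therefore also given for the 8 columns whose name agreed, which leave 2 GV, 3 MII and 3 Damaged libraries. Of the 10 oocyte markers fixed for a check of the label, 9 had a gene identifier and all 9 had at least 10 counts in every library tested. Of 16 cumulus and granulosa cell markers, 13 had an identifier and 3 passed the filter on low counts. The summed level of the 13, in counts scaled to the library's total (CPM), was 7.42 to 8.74 in the 4 GV libraries tested. It was 2.42 to 7.06 in MII and 3.54 to 4.18 in Damaged libraries. GV replicate 3, which is in no test, had 16.8 CPM, the highest of the 15. The sums were higher in GV than in the other groups. On this scale, however, 57.5% of all genes tested were called lower in MII and 56% in Damaged oocytes. The sums by themselves thus do not show more cumulus cell RNA in GV, and their part in the results was not tested.

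The profile of each of the 3 genes over the 15 libraries equalled that of 1 transcript. ZP2, whose protein is cut by the cortical granule protease ovastacin after fertilisation, is ENSSSCG00000007851 with the transcript ENSSSCT00000008601.3 of 2232 bases. The gene spans positions 24863730 to 24877522 of chromosome 3 on Sscrofa11.1. ZP3, the component with which the other zona proteins pair in the filaments, is ENSSSCG00000007691 with the transcript ENSSSCT00000008432.3 of 1311 bases, at positions 9934760 to 9944924 of chromosome 3. ZP4, which together with ZP3 binds sperm in the pig, is ENSSSCG00000010141 with the transcript ENSSSCT00000011102.4 of 1684 bases, at positions 53577138 to 53584544 of chromosome 14.

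In GV oocytes all 3 genes were among the most abundant transcripts. By TPM, a level per library corrected for transcript length, they ranked between 15 and 36 of 46369 transcripts in the 4 GV libraries tested. Their summed level was 9870 TPM ± 1105 (SD, n = 4) in GV, 2418 TPM ± 586 (SD, n = 5) in MII and 2536 TPM ± 297 (SD, n = 5) in Damaged oocytes. The lowest GV sum, 8823 TPM, lay above the highest sum after IVM, 3352 TPM. As a share of all estimated counts, the 3 genes together held 0.976% ± 0.0377 (SD, n = 4) in GV, 0.314% ± 0.0733 (SD, n = 5) in MII and 0.330% ± 0.0301 (SD, n = 5) in Damaged libraries. Both measures are scaled within each library. In counts scaled to the library's total, 57.5% of all genes tested were called lower in MII and 56% in Damaged oocytes. A fall on such a scale was thus not particular to the zona genes. The share of all genes whose GV libraries lay apart from the others is not given here.

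ZP3 fell most. Its level in GV replicates 1, 2, 4 and 5 was 2969, 3339, 3960 and 5140 TPM. In MII replicates 1 to 5 it was 60.2, 65.9, 97.9, 78.4 and 139 TPM. In Damaged replicates 1 to 5 it was 56.9, 74.9, 123, 137 and 159 TPM. Every library after IVM thus lay far below every GV library, while the MII and Damaged libraries overlapped. Its rank went from 15 to 30 in GV to 883 to 1666 in MII and 785 to 1717 in Damaged libraries. The transcript remained detected in all of them, with gene counts of 652 to 2208 after IVM against 29778 to 49882 in GV.

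**Figure D1:**
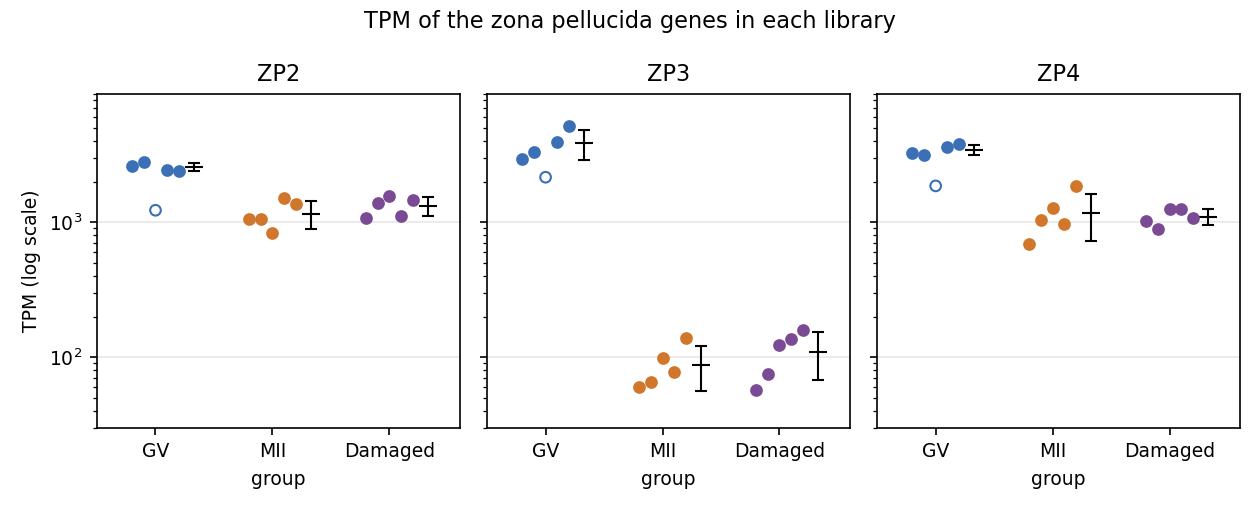
TPM (log axis) of ZP2, ZP3 and ZP4 in each library of GV, MII and Damaged oocytes, with the mean and SD in black. The open circle is GV replicate 3, which is in no mean or test. ZP3 went from 2969 to 5140 TPM in GV to 56.9 to 159 TPM after IVM, a far wider gap than those of ZP2 and ZP4.

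ZP2 was lower in TPM after IVM, but by much less. GV replicates 1, 2, 4 and 5 had 2596, 2780, 2458 and 2407 TPM. MII replicates 1 to 5 had 1051, 1057, 833, 1503 and 1356 TPM, and Damaged replicates 1 to 5 had 1076, 1401, 1553, 1119 and 1471 TPM. The 4 GV libraries lay above all those after IVM, and MII and Damaged libraries overlapped. In counts scaled to the library's total, ZP2 had log2 fold changes of -1.03 in MII and -0.84 in Damaged minus GV. The median of all genes tested was -1.09 and -1.01 there, so that ZP2 fell no more than the median gene. With the scaling used in the tests below, its GV libraries overlapped with both other groups.

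ZP4 had a similar course in TPM. GV replicates 1, 2, 4 and 5 had 3258, 3152, 3621 and 3799 TPM. MII replicates 1 to 5 had 694, 1036, 1285, 975 and 1857 TPM, with the highest value in MII replicate 5. Damaged replicates 1 to 5 had 1027, 893, 1249, 1260 and 1084 TPM, all within the range of the MII libraries. The 4 GV libraries lay above the others for this gene as well. In counts scaled to the library's total, ZP4 had log2 fold changes of -1.50 in MII and -1.53 in Damaged minus GV. The median of all genes tested was -1.09 and -1.01 there. With the scaling used in the tests below, the GV and MII libraries of ZP4 overlapped.

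**Figure D2:**
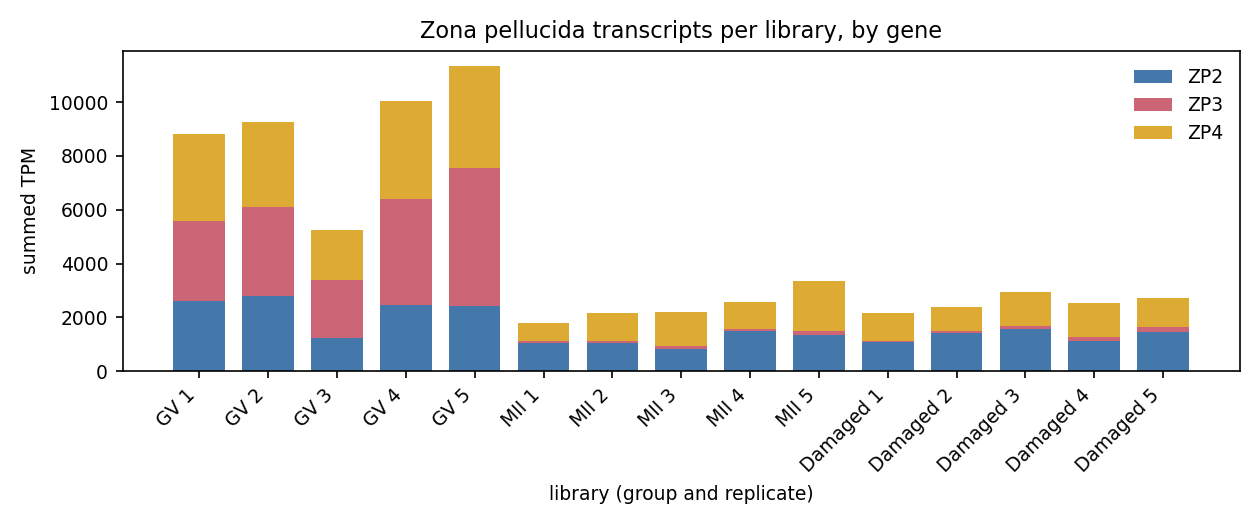
Summed TPM of ZP2, ZP3 and ZP4 in each library, stacked by gene. ZP3 made up 33.6 to 45.3% of the sum in the 4 GV libraries tested and 2.64 to 5.86% in the 10 libraries after IVM.

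The make-up of the zona transcripts changed accordingly. In GV oocytes ZP2, ZP3 and ZP4 held 26.3% ± 4.18, 38.6% ± 5.06 and 35.1% ± 1.64 (SD, n = 4) of their summed TPM. In MII oocytes the shares were 48.8% ± 9.80, 3.61% ± 0.640 and 47.6% ± 9.25 (SD, n = 5). In Damaged oocytes they were 52.1% ± 5.44, 4.26% ± 1.40 and 43.6% ± 5.16 (SD, n = 5). The coat's transcripts thus went from 3 components of like level to a mixture with little ZP3.

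The order of the levels changed as well. In GV libraries ZP3 was above ZP4 in 3 of 4 and ZP4 above ZP2 in 4 of 4. ZP3 and ZP4 did not differ beyond their spread in GV, with a mean log2 TPM ratio of 0.13 ± 0.23 (SD, n = 4). After IVM ZP3 was the lowest in 5 of 5 MII and 5 of 5 Damaged libraries. ZP4 was above ZP2 in 2 of 5 MII libraries and in 1 of 5 Damaged libraries, so that these neighbours had no fixed order.

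To ask whether the genes changed between stages against all others, gene counts were fitted with limma-voom over 13230 genes with TMM factors, which scale libraries so that genes on balance do not move. A gene passed at an FDR under 0.01, and a DEG also had an absolute log2 fold change over 2. In MII minus GV, 1 of the 3 zona genes, ZP3, was a DEG, against 17.1% of all genes tested that were DEGs lower in MII. CPM values from here on were scaled with TMM factors, unlike the cumulus marker sums above. ZP3 had 1829 CPM ± 241 (SD, n = 4) in GV and 87.4 CPM ± 30.1 (SD, n = 5) in MII, a 20.9-fold lower mean. Scaled to the library's total alone, its means were 2864 and 72.6 CPM, a 39.5-fold lower mean. With TMM factors its log2 fold change was -4.43 (SE 0.228, 95% interval -4.91 to -3.95, FDR 6.43e-12 by limma), and 2.36% of all genes had a lower one. In the 8 agreeing columns it was -4.31 (FDR 3.57e-08), and with all 5 GV libraries -4.26 (FDR 6.38e-11).

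ZP4 was near the threshold in the same comparison. It had 2235 CPM ± 298 (SD, n = 4) in GV and 1546 CPM ± 556 (SD, n = 5) in MII, and the libraries overlapped. Its log2 fold change of -0.59 (SE 0.193, FDR 0.0104 by limma) did not pass. It passed with the replicate number as a block (-0.62, FDR 0.00770), with MII and Damaged joined into 1 group (-0.62, FDR 0.00190), at transcript level (-0.70, FDR 0.00864) and without MII replicate 5 (-0.77, FDR 0.000335). It did not pass in the agreeing columns (-0.33, FDR 0.239) or with all 5 GV libraries (FDR 0.116). ZP2 had 2282 CPM ± 420 (SD, n = 4) in GV and 2125 CPM ± 541 (SD, n = 5) in MII, with overlapping libraries. Its log2 fold change was -0.12 (95% interval -0.49 to 0.25, FDR 0.547 by limma). Thus 1 of 3 members passed the FDR in the lower direction and 0 in the higher, beside 34.2% of all genes lower and 28.2% higher in MII. The members' median log2 fold change was -0.59 and that of all genes tested -0.17.

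In Damaged minus GV, which shares the GV libraries with the comparison above, ZP3 again was the 1 DEG among the members, beside 16.4% of all genes that were DEGs lower in Damaged. ZP3 had 104 CPM ± 34.0 (SD, n = 5) in Damaged oocytes, a 17.6-fold lower mean than in GV. Its log2 fold change was -4.20 (SE 0.226, 95% interval -4.67 to -3.72, FDR 1.03e-11 by limma). In the agreeing columns it was -3.95 (FDR 4.57e-08), and with all 5 GV libraries -4.03 (FDR 1.20e-10). ZP4 had 1416 CPM ± 202 (SD, n = 5) in Damaged oocytes and passed the FDR, with a log2 fold change of -0.66 (SE 0.193, FDR 0.00490 by limma). Its libraries did not overlap with those of GV, and the share of all genes without such overlap is not given here. The FDR call of ZP4 was lost without GV replicate 1 or 4 or Damaged replicate 2 or 5, where the FDR was 0.0162, 0.0172, 0.0147 and 0.0172. It was also lost with all 5 GV libraries (FDR 0.0683) and in the agreeing columns (FDR 0.0555). ZP2 had 2321 CPM ± 327 (SD, n = 5), and its log2 fold change was 0.03 (95% interval -0.34 to 0.40, FDR 0.877 by limma). So 2 of 3 members passed in the lower direction and 0 in the higher, beside 33.4% of all genes lower and 28% higher in Damaged. The median of the members was -0.66 and that of all genes -0.14.

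How far ZP2 and ZP4 moved depended on the scaling of the libraries. On library sizes without TMM factors, the median of all genes was -1.09 in MII minus GV and -1.01 in Damaged minus GV. On that scale ZP2 passed with log2 fold changes of -1.03 and -0.84 in the respective comparisons (FDR 4.37e-06 and 4.21e-05 by limma). ZP4 passed there with -1.50 and -1.53 (FDR 4.23e-07 and 3.37e-07), and ZP3 had -5.34 and -5.07. So did 57.5% of all genes as lower and 10.9% as higher in MII, and 56% as lower and 11.2% as higher in Damaged oocytes. In MII minus GV with TMM factors, the share of all genes with a lower log2 fold change was 51.3% for ZP2 and 39.4% for ZP4.

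**Figure D3:**
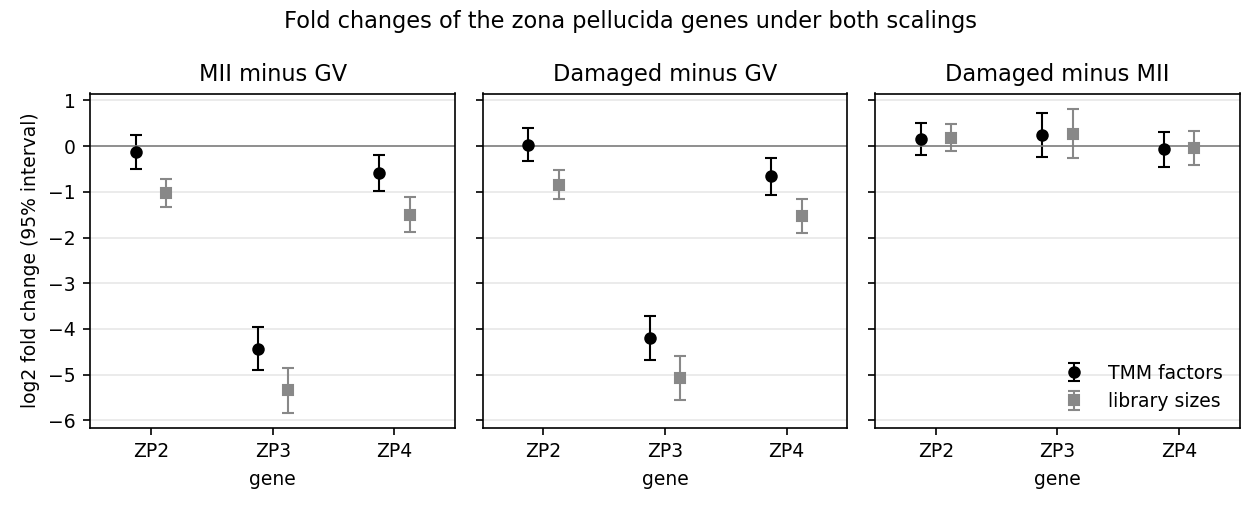
Log2 fold changes of ZP2, ZP3 and ZP4 with 95% intervals in the 3 comparisons, with TMM factors (black circles) and on library sizes (grey squares). ZP3 lay at -4.43 and -4.20 with TMM factors and at -5.34 and -5.07 on library sizes, and the intervals of Damaged minus MII spanned 0 for each gene.

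The ratio of 2 genes within a library does not depend on this scaling, and it showed that ZP3 changed more than the other members. The mean log2 TPM ratio of ZP3 to ZP2 was 0.56 ± 0.42 (SD, n = 4) in GV, -3.75 ± 0.53 (SD, n = 5) in MII and -3.67 ± 0.56 (SD, n = 5) in Damaged oocytes. The GV libraries lay between 0.19 and 1.09 and those after IVM between -4.26 and -3.03. ZP3 thus lost 19.9-fold against ZP2 from GV to MII and 18.8-fold from GV to Damaged oocytes. Both differences had an exact permutation p of 0.0159 (two-sided), the smallest that 4 against 5 libraries allow, and 0.0286 after adjustment over 9 tests.

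Against ZP4, ZP3 had a mean log2 ratio of 0.13 ± 0.23 (SD, n = 4) in GV, -3.72 ± 0.16 (SD, n = 5) in MII and -3.41 ± 0.52 (SD, n = 5) in Damaged oocytes. This was a 14.4-fold loss from GV to MII and an 11.6-fold loss from GV to Damaged oocytes, each with an adjusted p of 0.0286 by exact permutation. The ratio varied little among MII libraries, from -3.97 to -3.53, and more among Damaged libraries, from -4.17 to -2.77.

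ZP4 and ZP2 changed by more similar amounts. Their mean log2 ratio was 0.43 ± 0.22 (SD, n = 4) in GV, -0.03 ± 0.58 (SD, n = 5) in MII and -0.26 ± 0.32 (SD, n = 5) in Damaged oocytes. From GV to MII the libraries overlapped and the difference of -0.47 had an adjusted p of 0.286 by exact permutation. From GV to Damaged oocytes the difference of -0.69 had an adjusted p of 0.0286 by exact permutation. There the lowest GV ratio, 0.18, was just above the highest Damaged ratio, 0.17.

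**Figure D4:**
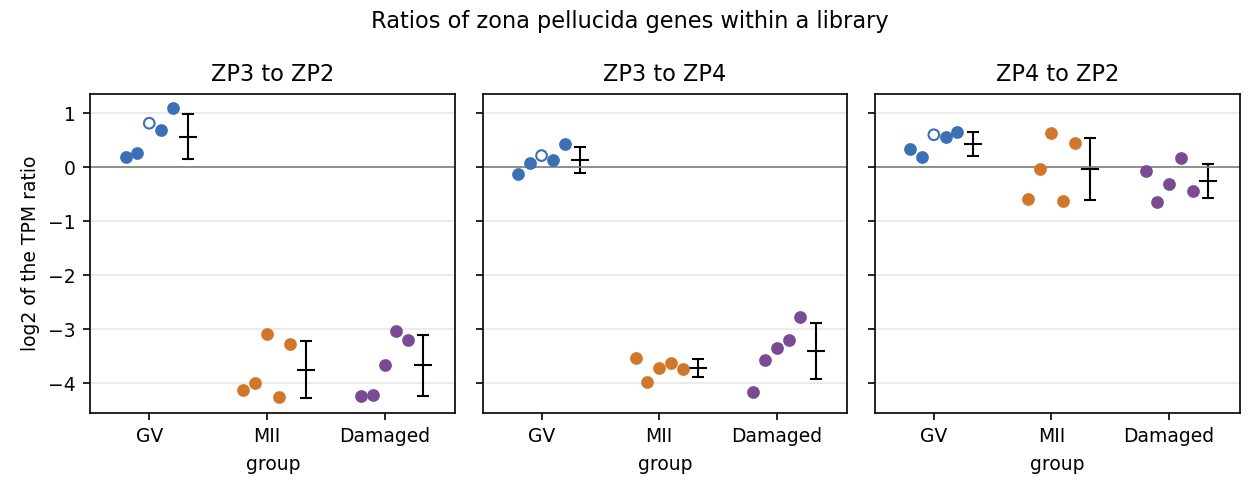
Log2 ratios of TPM between 2 zona genes within each library of GV, MII and Damaged oocytes, with the mean and SD in black. The open circle is GV replicate 3, in no mean or test. Both ratios with ZP3 dropped from near 0 or above to between -4.26 and -2.77 after IVM, and the ratio of ZP4 to ZP2 stayed between -0.65 and 0.66 in all libraries.

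MII and Damaged oocytes, which differ in the presence of a polar body, were compared directly. None of the 3 zona genes passed, beside 0% of all genes tested (0 of 13230 by limma, with 194 genes at an unadjusted p under 0.05). By edgeR's quasi-likelihood test and by DESeq2 0 genes passed too, with 273 and 251 at an unadjusted p under 0.05. With the replicate number as a block in limma, 0 passed and 353 were under it. Each of these numbers is smaller than chance alone would give at that threshold. The log2 fold change of Damaged minus MII was 0.15 for ZP2 (95% interval -0.20 to 0.51), 0.23 for ZP3 (-0.24 to 0.71) and -0.07 for ZP4 (-0.45 to 0.31). In the agreeing columns the values were 0.11, 0.36 and -0.23, and none passed. The intervals leave room for a change of up to 0.71 on the log2 scale, so that the absence of a call does not show equal levels. The 3 ratios between members had adjusted p values of 0.357 to 0.817 by exact permutation. The ratio of ZP3 to ZP4 alone passed in a left-out fit, with a difference of 0.50 and an adjusted p of 0.0476 without Damaged replicate 1.

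Other genes named for the zona were few. ZPBP2, which encodes a zona pellucida binding protein of sperm, rose from 9.03 CPM ± 1.95 (SD, n = 4) in GV to 38.9 CPM ± 2.61 in MII and 35.5 CPM ± 6.50 in Damaged oocytes (SD, n = 5 each). Its log2 fold changes were 2.13 and 1.98 (FDR 2.37e-09 and 6.94e-09 by limma), and it also passed as higher on library sizes. ZPBP and OVGP1, the oviduct glycoprotein that coats the zona after ovulation, had a count in 9 of 15 libraries each and no more than 6.11 and 6.08 counts in any, too few to test.

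Of 10 regulators of zona gene transcription, 8 were tested, and in MII minus GV 4 fell and 1 rose, beside 34.2% of all genes lower and 28.2% higher. Their median log2 fold change was -1.59, beside -0.17 for all genes. On library sizes 6 fell and 0 rose, beside 57.5% and 10.9% of all genes. FIGLA, the factor that switches on the zona genes in the growing oocyte, had 37.6 CPM ± 4.17 (SD, n = 4) in GV and 4.17 CPM ± 1.47 (SD, n = 5) in MII, a log2 fold change of -3.24 (FDR 5.02e-11 by limma). TCF3, which encodes its partner protein, fell by 3.45 on the log2 scale (FDR 8.72e-09). The oocyte homeobox factors NOBOX and LHX8 had log2 fold changes of -2.85 and -2.68 (FDR 4.63e-08 and 1.10e-10). In Damaged minus GV the same split of 4 lower and 1 higher was found, beside 33.4% and 28% of all genes, with a median of -1.42. The gene that rose in each comparison was TCF12, chosen for mention after its values were seen, at 1.06 in MII minus GV. On library sizes it had 0.15 and did not pass.

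**Figure D5:**
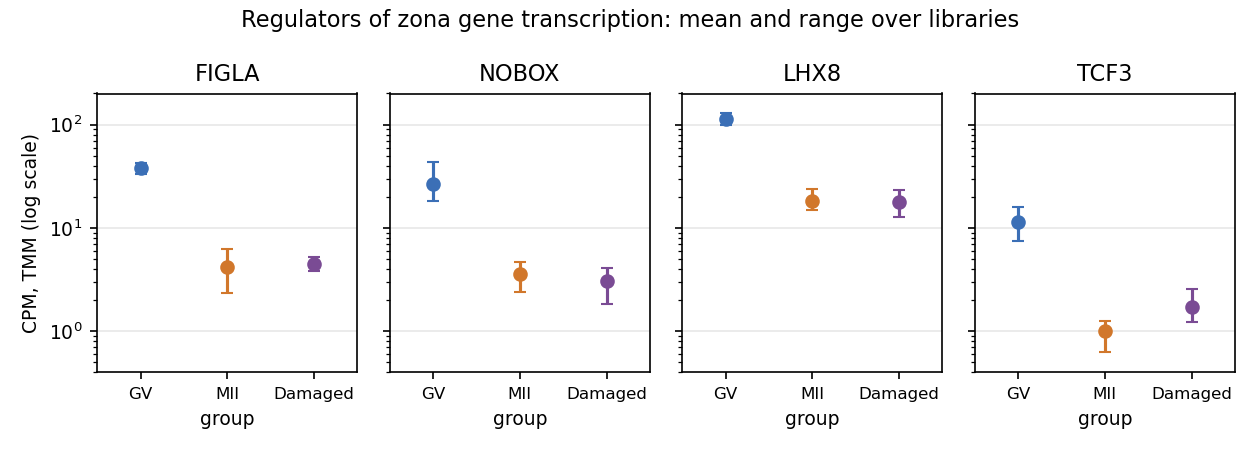
Mean CPM with TMM factors (log axis) of 4 regulators of zona gene transcription in GV, MII and Damaged oocytes, with bars from the lowest to the highest library. FIGLA went from 37.6 CPM in GV to 4.17 in MII and 4.45 in Damaged oocytes. The 4 genes are those of the 8 tested with the largest changes and smallest FDR in MII minus GV, and TCF12, which rose, is not shown.

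Among 12 tested of 13 genes of the cortical granules and of zona modification, 5 fell and 2 rose in MII minus GV, with a median of -0.57, and 4 fell and 2 rose in Damaged minus GV, with a median of -0.36. For all genes the shares were 34.2% lower and 28.2% higher in MII, and 33.4% and 28% in Damaged oocytes. On library sizes 9 fell and 0 rose in each, beside 57.5% of all genes lower in MII and 56% in Damaged oocytes. PADI6, a protein of the oocyte's cytoplasmic lattices, fell from 561 CPM ± 123 to 129 CPM ± 19.2 in MII (SD, n = 4 and 5, FDR 1.18e-09 by limma). RAB27A of the same list rose from 127 CPM ± 23.2 to 263 CPM ± 30.8 in MII (SD, n = 4 and 5, FDR 1.49e-06 by limma). It did not pass as higher on library sizes. In the list of proteases that can release zona precursors and of folding and glycosylation genes, 12 of 14 were tested. In MII minus GV 3 fell and 2 rose, with a median of -0.42, and in Damaged minus GV 2 fell and 2 rose, with a median of -0.28. These counts stand beside the same shares of all genes. On library sizes 9 fell and 1 rose in MII minus GV, beside 57.5% and 10.9% of all genes. The gene that rose under both scalings was SLC35A1, which carries CMP-sialic acid into the Golgi, at 130 CPM ± 42.8 in GV and 634 CPM ± 66.2 in MII (SD, n = 4 and 5, FDR 1.23e-09 by limma).

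For sperm receptors of the oocyte membrane, 8 symbols were listed, with IZUMO1R also under its older name FOLR4, and 5 were tested. Of these, 2 fell and 2 rose in both comparisons with GV, with medians of 0.48 and 0.66, and on library sizes 2 fell and 0 rose. In a list of 9 genes drawn up for secreted proteins, 5 were tested. OOSP3, OOSP2 and KITLG made up the 3 that rose in both comparisons, and 1 fell. The medians, 0.93 and 1.14, were the values of KITLG, the kit ligand, and thus do not describe the oocyte's own products. On library sizes 2 rose and 2 fell. GDF9, a growth factor that acts on cumulus cells, fell from 2009 CPM ± 272 to 318 CPM ± 67.7, while OOSP3, of the oocyte secreted protein family, rose from 401 CPM ± 109 to 3793 CPM ± 665 in MII (SD, n = 4 and 5, FDR 1.84e-11 and 5.86e-12 by limma). The highly expressed secreted products of the oocyte thus did not share 1 direction. The ZP domain is also found in proteins outside the egg coat, and of 4 such genes tested out of 12, 1 fell and 1 rose in MII minus GV and 1 fell and 2 rose in Damaged minus GV, with medians of -0.05 and 0.09. On library sizes 2 fell and 0 rose. For these 3 lists the shares of all genes are those given above. The levels of the ZP domain genes in GV, such as 0.704 CPM for UMODL1 and 6.07 CPM for TECTB, were far below those of the zona genes.

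Of the 9 oocyte markers, 5 fell and 0 rose in both comparisons with GV, with medians of -0.79 and -0.75, and all 9 fell on library sizes. Of all genes 34.2% and 33.4% were lower with TMM factors, and 57.5% and 56% on library sizes. ZAR1, a maternal effect gene, had the largest fall of the 9, with a log2 fold change of -4.64 in MII minus GV (FDR 1.55e-12 by limma), near that of ZP3. Of the 3 cumulus and granulosa markers tested, 0 fell and 1, PTGS2, rose in both comparisons, with medians of -0.40 and -0.23. Of all genes 28.2% and 28% were higher. PTGS2 was near the floor, with means of 0.678 CPM in GV, 1.57 CPM in MII and 1.61 CPM in Damaged oocytes. On library sizes 2 fell and 0 rose.

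The genes most alike to each member over the 14 libraries, by Pearson's r of log2 CPM among 11021 other genes with a symbol, differed between the members. They are given as a description, since the libraries fall into 2 stages and share their scaling. They were also picked as the highest of 11021 values over 14 libraries, so that their r is high in part by selection. For ZP3 they were SLC38A8, BCKDHA and GALK1, with r between 0.992 and 0.993. GALK1, the galactokinase, fell by 5.34 on the log2 scale from GV to MII (FDR 4.90e-12 by limma). For ZP4 they were ADARB2, RBMS2 and DLL3, with r between 0.911 and 0.928. For ZP2 they were METTL24, TMEM168 and FBXL7, with r between 0.776 and 0.827. Within the 10 libraries after IVM alone, r lay between 0.774 and 0.905 for the 9 genes with their members. These 10 libraries are among the 14 by which the genes were picked, so this is no separate check. Between the members r was 0.75 for ZP3 with ZP4, 0.09 for ZP3 with ZP2 and 0.15 for ZP4 with ZP2 over the 14 libraries.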

How the data were processed

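After trimming with AfterQC, the authors ran Kallisto 0.43 to obtain estimated counts of each transcript, on Ensembl cDNA of Sscrofa11.1. The deposited TPM values come from the same step and are scaled within each library. For genes, the deposited estimated counts are tximport's lengthScaledTPM output, without normalization across libraries. GV replicate 3 was left out because the study removed its GV library with the fewest reads.

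Columns of the gene table were given to the library whose transcript file had the same total. Of 15 columns, 8 carried that library's name and 7 another. In the order of the columns, the first 7 hold the libraries in turn with GV replicate 3 moved to the front. Groups and replicate numbers are those of the transcript files' labels. Symbols came from a gene name table (15527 of 22516 genes) and positions from RefSeq on Sscrofa11.1. No sequence is given here.

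Counts were filtered with filterByExpr of edgeR 4.0.16 (minimum 10, total 15) and tested in 1 fit of 3 groups over 14 libraries with limma 3.58.1 (voom) and TMM factors in R 4.3.3, with Benjamini-Hochberg adjustment over all genes. Ratios were tested by exact permutation over libraries. Alternatives used edgeR's quasi-likelihood test and DESeq2 1.42.0 on counts rounded to whole numbers. The gene fits and the permutation test were tested on simulated data. Summaries used Python with scipy. Libraries of a group differed beyond counting error in each of 30 pairs (chi-square per gene 13.7 to 190). The study's methods give 5 separate collections of 15 oocytes a group, but the labels tie no library to a collection or animal, so p values measure the spread between libraries.

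The named genes were the members, up to 4 genes of each list (largest absolute log2 fold change and smallest FDR in MII minus GV), any other zona gene with a count, and for each member the 3 genes with the highest Pearson correlation. The members and lists were chosen with earlier results of these data known.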

Additional observations from a re-analysis of the deposited data

Results flagged for a closer look

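ZP2 in GV replicate 3 stood apart from the other GV libraries. Its level of 1228 TPM was below the nearest GV library, at 2407 TPM, and the gap was 0.759 of the whole range of the 5 libraries, above Dixon's 95% critical value for 5 values. ZP3 and ZP4 were also lowest in that library, at 2157 and 1860 TPM, without passing that value. Its log2 ratios of ZP3 to ZP2, ZP3 to ZP4 and ZP4 to ZP2 were 0.81, 0.21 and 0.60, each within the range of the other GV libraries. The library had the lowest total of the 15 and the highest sum of cumulus and granulosa markers, 16.8 CPM. It is in no test of the report. In all, 18 groups of values were examined in this way, and chance alone marks about 1 in 20.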

How the results depend on the processing

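ZP3 fell under each alternative run, with log2 fold changes of -5.34 to -4.26 in MII minus GV and -5.07 to -3.95 in Damaged minus GV. On library sizes ZP2 passed, with -1.03 and -0.84 in MII minus GV and Damaged minus GV, and ZP4 with -1.50 in MII minus GV. The uncalled ZP2 changed sign in MII minus GV with all 5 GV libraries (0.10) and with the columns whose name agrees only (0.13), and in Damaged minus GV with MII and Damaged joined (-0.045) and at transcript level (-0.077). ZP4 in MII minus GV passed with MII and Damaged joined (-0.62) and at transcript level (-0.70). ZP4 in Damaged minus GV did not pass with all 5 GV libraries (-0.47) or with agreeing columns (-0.56). The FDR of ZP4 over the alternatives was 4.23e-07 to 0.239 in MII minus GV and 3.37e-07 to 0.0683 in Damaged minus GV.

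With the replicate block, ZP4 passed in MII minus GV (-0.62), no other call of a member in the gene fits changed, and the ratios kept their direction: ZP3 to ZP2 -4.48 and -4.24, ZP3 to ZP4 -3.85 and -3.56 (MII and Damaged minus GV), and ZP4 to ZP2 -0.68 (Damaged minus GV). Their paired p of 0.125 is the smallest that 4 pairs allow. With agreeing columns (chosen after seeing the data, like the transcript level) the same ratios were -4.44, -4.19, -3.98, -3.39 and -0.80, with 2 GV libraries too few to pass. With these columns, 48 results of other named genes kept direction and call, 11 no longer passed and 1 newly passed. Replicate numbers were not taken to pair the libraries, as the labels do not tie a number to a collection. Still, 5 of 13 same-numbered pairs had deviations correlated over 0.1, and in 14 of 26 comparisons a library was closest to its own number. The median correlation was 0.104 (GV and Damaged), 0.020 (GV and MII) and 0.081 (MII and Damaged) for the same number. For other numbers it was -0.039, -0.006 and -0.017. A pairing by number thus remains possible.

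Leaving out 1 library at a time gave -0.23 to 0.023 and -0.079 to 0.16 for ZP2, and -0.77 to -0.43 and -0.73 to -0.57 for ZP4 (MII and Damaged minus GV), and -0.23 to 0.11 for ZP4 in Damaged minus MII. The ratio of ZP3 to ZP2 ranged from -4.48 to -4.13 and from -4.39 to -4.05, that of ZP3 to ZP4 from -3.93 to -3.74 and from -3.70 to -3.35, and that of ZP4 to ZP2 from -0.80 to -0.59 in Damaged minus GV. Their adjusted p of 0.0476 to 0.0643 follows from the fewer libraries. In Damaged minus MII the ranges were -0.081 to 0.25 (ZP3 to ZP2) and 0.14 to 0.50 (ZP3 to ZP4).

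In MII minus GV, 596 DEGs were higher and 2256 lower with TMM factors, 48 and 3887 on library sizes, and 1686 and 3618 transcripts at transcript level. In Damaged minus GV the numbers were 540 and 2166, 44 and 3672, and 1644 and 3525. On library sizes ITGA6 (-0.26 and -0.21) and TECTA (-0.49 and -0.39) changed sign in the respective comparisons. Sums of estimated counts per gene were not run, for want of a transcript-to-gene list, and transcript shares had no value, since each member matched 1 transcript.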

Other observations

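Within MII and Damaged oocytes, ZP3 and the ratio of ZP4 to ZP2 varied between libraries more than the group means differed. The log2 ratio of ZP4 to ZP2 was 0.62 and 0.45 in MII replicates 3 and 5, and -0.60, -0.03 and -0.62 in MII replicates 1, 2 and 4. In Damaged replicates 1 to 5 it was -0.07, -0.65, -0.31, 0.17 and -0.44. MII replicate 5 had the highest summed zona level after IVM, with 3352 TPM, and MII replicate 1 the lowest, with 1806 TPM.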
